A study of Homo sapiens with 12 samples.

Results

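The COPII coat genes were followed as 10 genes taken by symbol from the count table: SAR1A, SAR1B, SEC23A, SEC23B, SEC24A, SEC24B, SEC24C, SEC24D, SEC13 and SEC31A. All 10 were present, among 16389 genes in all, and all passed the filter on low counts in each comparison. RNA was measured by poly(A) RNA-seq in HepG2, an established human liver cancer cell line, with 3 libraries in each of 4 groups. LG cells were grown for 48 h in medium with 5.5 mM glucose and HG cells in 20 mM glucose. LGV and HGV cells had the same media and then 1 mM VPA (valproic acid, a histone deacetylase inhibitor and antiepileptic drug) for 12 h. LG and HG received no VPA, and whether they were harvested with the treated cells or before VPA was added is not stated in the sources used here. The cells came from 1 line, and nothing stated that the libraries of a group were separate cultures, so p-values measure the spread between these libraries.

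COPII is the protein coat that buds transport vesicles from the endoplasmic reticulum (ER) towards the Golgi. The GTPase SAR1, loaded with GTP by the exchange factor PREB, enters the ER membrane and recruits SEC23-SEC24, where SEC24 binds the cargo and SEC23 activates GTP hydrolysis by SAR1. SEC13 and SEC31 then assemble over this inner layer as an outer cage. Liver cells send out albumin, lipoproteins and clotting factors by this route, and SAR1B and SEC23B are known from inherited disorders of chylomicron secretion and of red cell formation.

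On GRCh37, the build of the counts, the SAR1 genes lie at chr10:71907045-71930279 (SAR1A, minus strand, ENSG00000079332) and chr5:133936839-133984961 (SAR1B, minus, ENSG00000152700). The SEC23 genes lie at chr14:39501123-39578850 (SEC23A, minus, ENSG00000100934) and chr20:18488164-18542059 (SEC23B, plus, ENSG00000101310). The SEC24 genes lie at chr5:133984475-134063599 (SEC24A, plus, ENSG00000113615), chr4:110354928-110462052 (SEC24B, plus, ENSG00000138802), chr10:75504130-75531919 (SEC24C, plus, ENSG00000176986) and chr4:119643978-119759838 (SEC24D, minus, ENSG00000150961). The cage genes lie at chr3:10334815-10362796 (SEC13, minus, ENSG00000157020) and chr4:83739662-83822319 (SEC31A, minus, ENSG00000138674). SAR1B and SEC24A overlap at their 5′ ends on opposite strands, sharing 389 exonic bases, which are 3.6% of the exonic length of SAR1B and 5.34% of that of SEC24A. The sources do not say if read strand entered the counting, so reads in these bases cannot be told apart. SEC24C shares 2293 exonic bases (42.8%) with an opposite-strand transcript that is not analysed here. SEC31A shares 482 bases (5.18%) with THAP9-AS1 on its own strand. The other overlaps were at most 3.83% of the member.

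Promoter sequences from RefSeq (GRCh38.p14, 250 bases before to 50 after the start) were found for 9 of the 10 members. SEC24D had no entry. Motifs of the ER stress response were searched on both strands. TGACGTGG, the UPRE that ATF6 and XBP1 are known to bind, occurred in the promoters of 2 members, SEC24A and SEC23A, and in 0.927% of the 27305 genes with a promoter. These 2 promoters are shown because they hold these letters. The response of each gene to glucose is given below. Capitals mark the UPRE letters and the shorter ACGTG.

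SEC24A, chr5:134648535-134648834, plus strand: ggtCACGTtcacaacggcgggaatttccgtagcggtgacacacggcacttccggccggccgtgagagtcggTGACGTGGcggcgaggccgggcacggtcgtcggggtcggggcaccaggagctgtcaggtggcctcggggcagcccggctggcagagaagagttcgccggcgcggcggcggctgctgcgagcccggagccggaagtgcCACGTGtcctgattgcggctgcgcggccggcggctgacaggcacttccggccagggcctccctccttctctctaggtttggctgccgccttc

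SEC23A, chr14:39103186-39103485, minus strand: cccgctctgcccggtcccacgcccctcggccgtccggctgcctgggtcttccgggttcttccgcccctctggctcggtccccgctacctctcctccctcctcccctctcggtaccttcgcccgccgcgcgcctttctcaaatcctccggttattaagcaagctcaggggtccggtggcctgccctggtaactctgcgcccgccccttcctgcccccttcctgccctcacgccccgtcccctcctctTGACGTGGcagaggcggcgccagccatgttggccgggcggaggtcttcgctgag

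The UPRE letters began 179 bases before the start in SEC24A and 4 bases before it in SEC23A. ACGTG, which lies within the UPRE, occurred in 7 of the 9 members (not in SEC24B or SAR1B) and in 24.9% of all genes. The ERSE (CCAAT, 9 bases, CCACG), the ERSE-II (ATTGG, 1 base, CCACG) and the CRE (TGACGTCA) occurred in 0 of the 9 members, and in 0.0916%, 0.0696% and 2.25% of all genes. These matches are descriptions of the letters in these windows only.

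Values below are CPM (counts scaled to library size, with TMM factors). Overlap between groups is given as a description only, because the share of all genes without overlap was not counted. Library totals ran from 29798442 to 45572694 counts, and the members had between 1085 and 20795 reads in a library. The CV of a member within a group was between 1.11% and 20.0%. At the lowest of these CVs, counting error was not small beside the spread between libraries. LG replicate 3 held the lowest LG value for 7 of the 10 members and LGV replicate 1 the lowest LGV value for 8. Hepatocyte markers (9 of 9 in the table) summed to between 40000 and 61600 CPM, with LGV at 40000 to 41000 and each other group at 47000 or above. Their part in the results was not tested. Of the leukocyte markers 0 of 3 were listed in the table used here, 2 of 3 endothelial markers summed to at most 4.85 CPM, and 3 of 4 fibroblast or stellate markers to at most 78.0 CPM.

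**Figure D1:**
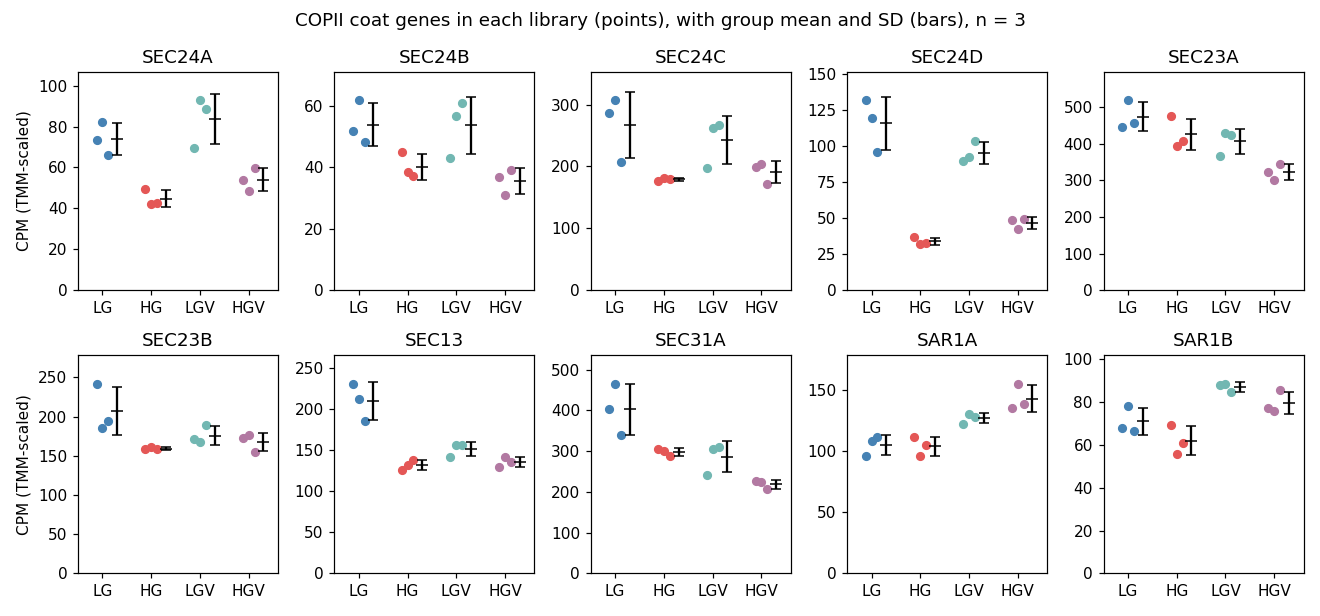
CPM of each COPII coat gene (y axis, from 0) in the 3 libraries of LG, HG, LGV and HGV (points, in replicate order), with the group mean and SD as a bar to the right. SEC24D sits at 32.4 to 49.4 CPM in the 6 high glucose libraries and at 89.5 to 132 in the 6 low glucose libraries, and the 6 VPA-treated libraries have the 6 highest values of SAR1A.

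Most of the coat was lower in high glucose, and SEC24D by the most of the 10. Against LG, 7 of the 10 members were lower in HG and 0 were higher (edgeR's quasi-likelihood F test, FDR of 0.05 or less over 15452 genes), while 12.7% of all genes tested were called lower and 12.0% higher. The median log2 fold change of the members was -0.407, against 0.0107 over all genes, with 9 below 0 and 1 above. The 7 were the 4 SEC24 genes, SEC23B, SEC13 and SEC31A. Neither SAR1 gene passed the test. The comparison asks which genes respond to hyperglycaemia before any VPA.

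SEC24D, a cargo-binding subunit, was at 132, 120 and 95.8 CPM in the LG libraries and at 36.8, 32.4 and 33.1 in HG. The highest HG value was far below the lowest LG value. The mean went from 116 ± 18.6 to 34.1 ± 2.34 (SD, n = 3 each), a log2 fold change of -1.74 (SE 0.14, 95% interval -2.03 to -1.46, edgeR FDR 7.46e-08), or 3.35-fold lower. It ranked 13th by p among all genes tested. For reference, HSPA5, the main ER chaperone, changed by -2.06 and TXNIP, a gene known to be induced by glucose, by 5.37 on the log2 scale.

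The other SEC24 genes were also lower, by less. SEC24A had 73.2, 82.0 and 66.2 CPM in LG and 49.5, 41.9 and 42.7 in HG (log2 fold change -0.70, SE 0.13, edgeR FDR 0.000789). SEC24C had 287, 307 and 207 CPM in LG and 177, 181 and 179 in HG (-0.55, SE 0.14, FDR 0.00721). SEC24B had 51.6, 61.7 and 48.2 CPM in LG and 45.0, 38.4 and 37 in HG (-0.40, SE 0.14, FDR 0.0379). None of the 3 overlapped between groups, but the lowest LG library of SEC24B stood only slightly above its highest HG library.

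In the rest of the inner coat, SEC23B had 242, 186 and 194 CPM in LG and 158, 161 and 158 in HG (-0.36, SE 0.12, edgeR FDR 0.0416). SEC23A had 447, 519 and 458 CPM in LG and 475, 395 and 408 in HG, which overlapped (-0.14, 95% interval -0.39 to 0.12, FDR 0.438). The cage genes were both lower. SEC13 had 231, 212 and 185 CPM in LG against 126, 132 and 138 in HG (-0.64, SE 0.12, FDR 0.000989), and SEC31A had 403, 466 and 339 against 306, 300 and 288 (-0.41, SE 0.13, FDR 0.0257).

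The GTPases did not pass the test. SAR1A had 95.5, 108 and 111 CPM in LG and 111, 95.8 and 105 in HG (log2 fold change 0.00, 95% interval -0.25 to 0.26, edgeR FDR 0.988). SAR1B had 68.1, 78.1 and 66.7 CPM in LG and 69.2, 55.9 and 60.8 in HG (-0.18, interval -0.44 to 0.09, FDR 0.326). In both genes the groups overlapped. The interval of SAR1B includes the -0.40 called in SEC24B, and that of SAR1A does not.

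The calls of SEC24A, SEC24D and SEC13 held under each alternative and without any single library. SEC24C lost its call only without LG replicate 1. SEC24B and SEC23B lost theirs also with library size or upper quartile factors in place of TMM and with no filter, and SEC31A with either of these scalings. Leaving out libraries gave fewer calls: 3 members were called without LG replicate 1 (SEC24A, SEC24D and SEC13), and 4 without HG replicate 2 or without HG replicate 3 (these 3 and SEC24C), as with either scaling. Without HG replicate 1, SEC23B and SEC31A were not called, and without LG replicate 2, SEC24B and SEC31A were not. With library size alone, the median of all genes moved to 0.106 and the split of all calls from 1854 higher and 1959 lower (48.6% higher) to 2172 and 1297 (62.6%; 64.3% with upper quartile factors). Relative to that median, SEC24B was at -0.40, SEC23B at -0.37 and SEC31A at -0.41.

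**Figure D2:**
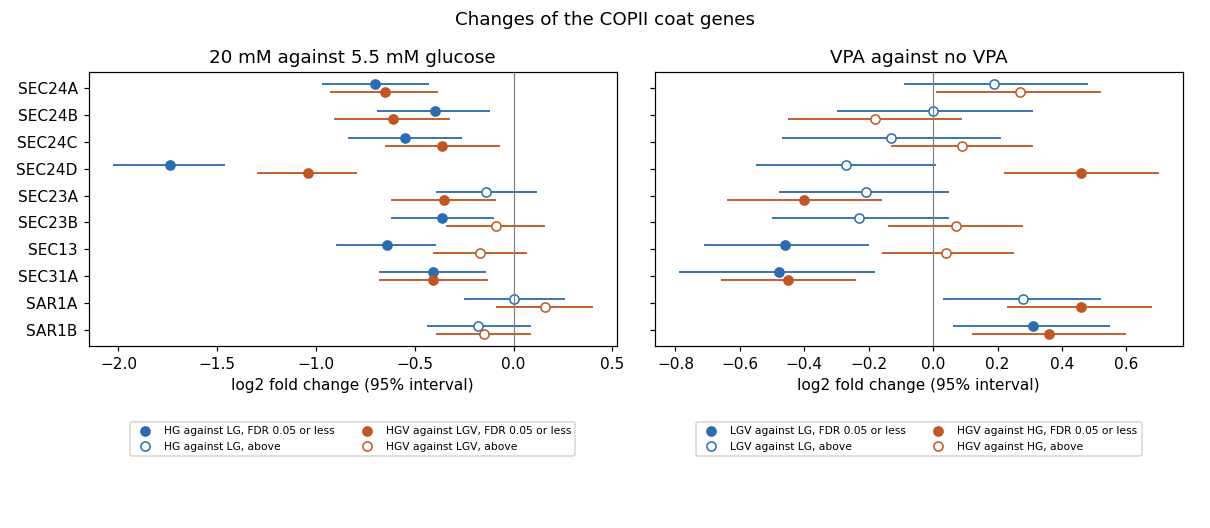
Log2 fold change of each member with its 95% interval (x axis) for 20 mM against 5.5 mM glucose (left: HG against LG in blue, HGV against LGV in orange) and for VPA against none (right: LGV against LG in blue, HGV against HG in orange). Filled points have an edgeR FDR of 0.05 or less. SEC24D lies farthest to the left at -1.74 and -1.04, and both SAR1 genes lie to the right of 0 with VPA.

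With VPA present, the 4 SEC24 genes, SEC23A and SEC31A were lower in high glucose. HGV was compared with LGV to ask how cells in high and low glucose differ once VPA is present. In all, 6 members were lower and 0 higher, against 19.5% and 21.2% of the 16208 genes tested. The members' median was -0.356, against 0.00961 over all genes, with 9 below 0 and 1 above.

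SEC24D was at 89.5, 92.3 and 104 CPM in LGV and 48.9, 42.2 and 49.4 in HGV, again with no overlap, and was 2.06-fold lower (log2 fold change -1.04, SE 0.12, edgeR FDR 5.59e-06). SEC24A had 69.7, 92.8 and 88.7 CPM in LGV and 53.7, 48.4 and 59.6 in HGV (-0.65, SE 0.13, FDR 0.000807). SEC24B had 43.1, 56.7 and 60.8 CPM in LGV and 36.7, 30.9 and 38.9 in HGV (-0.61, SE 0.14, FDR 0.00217). These 3 kept their call under each alternative and without any single library.

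SEC24C had 198, 263 and 267 CPM in LGV and 199, 204 and 171 in HGV, so that LGV replicate 1 lay among the HGV values (-0.36, SE 0.14, edgeR FDR 0.0431). SEC31A was lower at -0.41 (SE 0.13, FDR 0.0184) and SEC23A at -0.35 (SE 0.13, FDR 0.0338), both without overlap. The calls of these 3 were lost without LGV replicate 2 or without LGV replicate 3, when 3 members were called. SEC24C also lost its call without HGV replicate 1 or 3, SEC23A without HGV replicate 1 or 2, and SEC31A without HGV replicate 3. SEC13 (-0.17, 95% interval -0.41 to 0.07), SEC23B (-0.09, interval -0.34 to 0.16), SAR1A (0.16, interval -0.09 to 0.40) and SAR1B (-0.15, interval -0.39 to 0.09) did not pass the test. With library size alone, 4 members were called lower, and the split of all calls moved from 3444 higher and 3160 lower (52.2% higher) to 3761 and 2309 (62%; 63.5% with upper quartile factors).

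With VPA in low glucose, the outer cage genes were lower and SAR1B was higher. In LGV against LG, 1 member was higher and 2 lower, while 21.7% and 19.9% of the 15944 genes tested were called, so these counts were near the share of all genes. The members' median was -0.17, against -0.00569 over all genes, with 4 above 0 and 6 below. SEC13 had 142, 156 and 156 CPM in LGV, below each LG library (-0.46, SE 0.12, edgeR FDR 0.00661). SEC31A had 242, 306 and 310 CPM in LGV, also below each LG library (-0.48, SE 0.14, FDR 0.0143). SAR1B, the paralog known for exporting large lipoproteins, had 87.9, 88.6 and 84.6 CPM in LGV, above each LG library (0.31, SE 0.11, FDR 0.0418).

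SAR1A had 122, 130 and 128 CPM in LGV, also above each LG library, but with an edgeR FDR of 0.0641 (log2 fold change 0.28, SE 0.11). It was called higher with upper quartile factors, with library size, with the filter of 1 CPM in 3 libraries and in one fit of 12 libraries. SEC24D did not pass the test (-0.27, 95% interval -0.55 to 0.01, FDR 0.117), and SEC24B was at 0.00 (interval -0.30 to 0.31). The count fell to 1 (SEC13) without LGV replicate 1, and without LGV replicate 2 or 3 SEC13 and SEC31A were called. SAR1B also lost its call without LG replicate 1 or without LG replicate 3, and SEC31A without LG replicate 2. Without LG replicate 3, SAR1A was called higher and SEC24D lower. Scaling by library size moved the median of all genes to 0.156 and the split of all calls from 3461 higher and 3177 lower (52.1% higher) to 4500 and 1956 (69.7%). It called 5 members, with SEC24A, SAR1A and SAR1B higher. Relative to that median SAR1A was at 0.28, SAR1B at 0.31, SEC13 at -0.45 and SEC31A at -0.48.

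With VPA in high glucose, both SAR1 genes and SEC24D were higher and SEC23A and SEC31A lower. In HGV against HG, 3 members were higher and 2 lower, against 25.8% and 20.2% of the 16188 genes tested, so these counts were near the share of all genes. The members' median was 0.0823, against 0.0247 over all genes, with 7 above 0 and 3 below. SAR1A had 135, 155 and 138 CPM in HGV, above each HG library (0.46, SE 0.10, edgeR FDR 0.00289), and SAR1B had 77.4, 76.0 and 85.5, also above each (0.36, SE 0.11, FDR 0.0174). SEC24D had 48.9, 42.2 and 49.4 CPM in HGV, above each of the 3 HG values, and was 1.37-fold higher (0.46, SE 0.11, FDR 0.00479).

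SEC31A was at 226, 224 and 206 CPM in HGV, below the 288 to 306 of HG (-0.45, SE 0.10, edgeR FDR 0.00211). SEC23A was at 322, 302 and 344 CPM in HGV, below the 395 to 475 of HG (-0.40, SE 0.11, FDR 0.00939). SEC13 did not pass (0.04, 95% interval -0.16 to 0.25), nor did SEC24A at 0.27 (FDR 0.0785). SAR1B lost its call without HG replicate 2, without HG replicate 3 or without HGV replicate 3, and SEC24A was called higher without HGV replicate 2. Scaling by library size moved the median of all genes to 0.146 and the split of all calls from 4184 higher and 3272 lower (56.1% higher) to 5182 and 2424 (68.1%). It called SEC24A higher and ended the call of SEC23A, which was at -0.42 relative to that median.

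Whether VPA changed the response to glucose was asked with the interaction of the 2 factors over the 12 libraries. No member was called (0 of 10 by edgeR's quasi-likelihood test), and few genes were: 0.0244% higher and 0.0183% lower of 16389. Of the members, 2 had an unadjusted p under 0.05, as did 1852 genes in all. SEC24D had an interaction of 0.74 (SE 0.18, 95% interval 0.37 to 1.11, edgeR FDR 0.0953, rank 85 by p), where the change with glucose was -1.74 without VPA and -1.04 with it. SEC13 had 0.51 (SE 0.15, interval 0.19 to 0.84, FDR 0.18). SEC24D was called by edgeR's likelihood ratio test and by the Wald test of DESeq2, each the only member called, and by the quasi-likelihood test without LG replicate 3. Over all genes these settings called 150 higher and 52 lower, 100 and 62, and 48 and 19, in this order.

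Over the 4 groups, SEC24D was thus ordered LG (116 ± 18.6 CPM), LGV (95.4 ± 7.95), HGV (46.9 ± 4.03) and HG (34.1 ± 2.34), and only LG and LGV were neighbours that overlapped. SAR1A was ordered HGV (143 ± 10.7), LGV (126 ± 3.86), LG (105 ± 8.35) and HG (104 ± 7.49), with LG and HG overlapping and HGV and LGV not differing past the threshold. SEC31A was ordered LG (403 ± 63.5), HG (298 ± 9.08), LGV (286 ± 38.3) and HGV (219 ± 11.2), with HG and LGV overlapping. Comparisons that share a group are not independent.

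Because a share within a paralog family needs no scaling between libraries, the make-up of each family was also compared, as reads per kb of exons. SEC24C was the main SEC24 paralog in every group, with 60.6% ± 2.23 in LG, 66.0% ± 2.28 in HG, 59.0% ± 1.01 in LGV and 65.3% ± 4.32 in HGV (SD, n = 3). SEC24D made up 14.3% ± 1.11 in LG, 6.76% ± 0.297 in HG, 12.7% ± 1.46 in LGV and 8.66% ± 0.863 in HGV. With high glucose the share of SEC24D differed by -5.78 percentage points and that of SEC24C by 5.89 (exact permutation test within VPA levels, two-sided, p = 0.005 each, the smallest possible of 400 arrangements, 0.03 after Benjamini-Hochberg adjustment over 12 tests). Neither overlapped between glucose levels at either VPA level. The shares of a family sum to the whole, so these 2 tests are not independent. A share alone at this smallest possible p would not have passed the adjustment over 12 tests. The adjusted 0.03 of each therefore rests on both being there.

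The test averages a difference over the levels of the other factor, so shifts in opposite directions can cancel. On this average the SEC24A and SEC24B shares did not pass for glucose (-0.909 and 0.795 points, exact permutation p = 0.2 and 0.385). The SEC24B share was 12.7% ± 1.25 in LG and 15.1% ± 1.21 in HG, without overlap. With VPA it was 13.3% ± 0.451 in LGV and 12.5% ± 1.7 in HGV, with overlap. The levels were not tested apart. SAR1A made up 69.8% ± 2.17 of SAR1 reads per kb in LG, 72.4% ± 0.839 in HG, 69.4% ± 0.862 in LGV and 73.6% ± 2.28 in HGV. Its difference with glucose was 3.41 points (exact permutation p = 0.01, adjusted 0.04). The SAR1A shares of LG (68.4 to 72.3%) and HG (71.4 to 72.9%) overlapped, and those of LGV and HGV did not. SEC23A made up 53.6% in LG, 57.2% in HG, 53.7% in LGV and 49.1% in HGV. On average no difference passed the threshold for glucose (-0.425 points, exact permutation p = 0.865) or VPA (-3.97 points, p = 0.125). The means rose with glucose in untreated cells and fell with glucose in VPA-treated cells, with overlap in each case. The SEC23A shares of 55.1 to 60.1% in HG and 46.3 to 52.7% in HGV did not overlap, while those of LG and LGV did. With VPA, only the SEC24A share passed, at 2.02 points (exact permutation p = 0.015, adjusted 0.045), and this was lost with MANE Select transcript lengths (1.73 points, adjusted 0.075) or without length (2.28 points, adjusted 0.06). The SEC24D share was larger with MANE Select lengths, at 26.0%, 13.3%, 23.5% and 16.7% in LG, HG, LGV and HGV. Its difference with glucose was then -9.78 points, and -8.64 without length, and that of SEC24C was 8.72 and 7.79 (exact permutation p = 0.005 each).

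**Figure D3:**
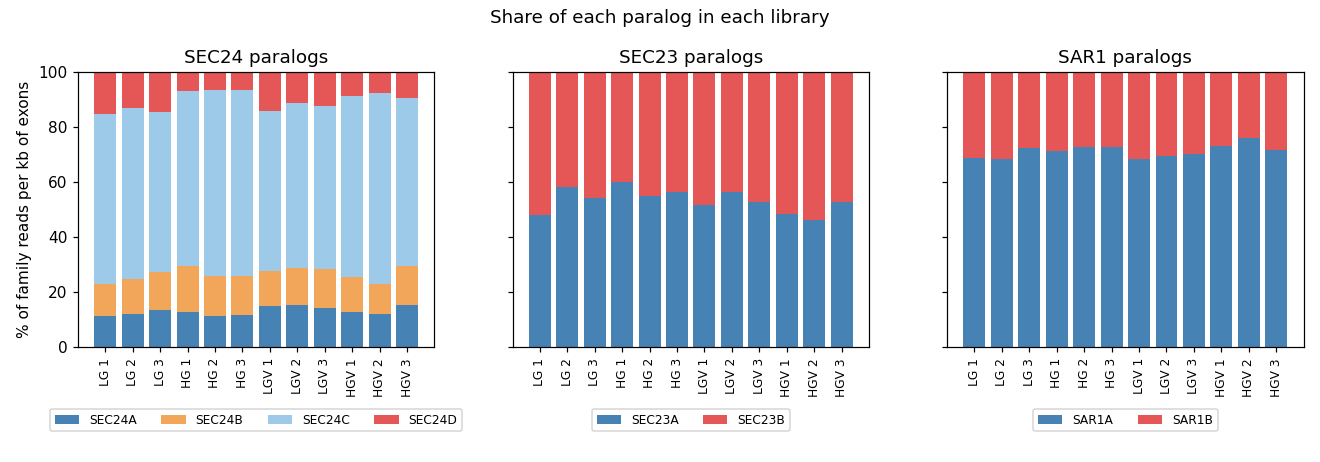
Share of each paralog (y axis, % of the family's reads per kb of exons) in each of the 12 libraries (x axis), for SEC24, SEC23 and SAR1. The SEC24D segment at the top of the left panel is 6.51 to 9.48% in the high glucose libraries and 11.3 to 15.3% in the low glucose libraries.

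Summed over paralogs, SEC24 was at 82.0 ± 13.7 CPM per kb in LG, 50.8 ± 1.29 in HG, 76.6 ± 11.2 in LGV and 54.6 ± 1.93 in HGV. SEC23 was at 102 ± 4.91, 85.8 ± 4.75, 87.4 ± 5.42 and 75.8 ± 0.896. SAR1 was at 21.8 ± 1.48, 20.8 ± 1.67, 26.4 ± 0.589 and 28.0 ± 1.39. The SEC24 sums of the high glucose libraries (49.8 to 56.4) lay below those of the low glucose libraries (63.7 to 92.5), and the SAR1 sums of the VPA libraries (25.8 to 29.4) lay above those of the untreated ones (19.1 to 22.9). Per kb of exons SEC23A was the highest member in LG, HG and LGV and SEC23B in HGV, and SEC24D was the lowest in HG and HGV. This order depended on the length used: per kb of MANE Select transcript SEC13 was highest in LG, LGV and HGV, and SEC24A or SEC24B lowest in each group.

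The profile of each member over the 12 libraries was set against those of 11954 genes, by the root mean square difference of centred log2 CPM. SEC24D, whose own spread was 0.731, lay closest to ENTPD7 (0.163), SYVN1 (0.173) and RAB17 (0.2). SYVN1 was at 216 ± 38.7 CPM in LG, 85 ± 3.4 in HG, 204 ± 26.0 in LGV and 104 ± 12.7 in HGV. SEC24A lay closest to TAX1BP1 (0.0998), SEC24C to SUPT5H (0.0693), SEC31A to PABPC4 (0.0674) and SAR1A to NUDT5 (0.0639). The closest to SEC24B was CCDC91 (0.0731), to SEC23A WDR33 (0.0618), to SEC23B TBC1D25 (0.0791) and to SAR1B TAF2 (0.0771). SEC13 lay closest to C1orf174 (0.0648) and ATP8B2 (0.0753), followed by LMAN2 (0.0772). Between members the closest pairs were SEC13 and SEC23B (0.155), SAR1A and SAR1B (0.16) and SEC23A and SEC31A (0.166), and the farthest were SAR1A and SEC24D (0.779). The own spreads of the close pairs were 0.275 and 0.172, 0.208 and 0.206, and 0.225 and 0.335. Genes with small spreads lie close by this measure even without a shared pattern. These distances describe the same 12 libraries that gave the tests.

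Genes that work with the coat were described from 6 lists, of which 118 of 122 genes were in the table. Their counts are to be read against the shares of all genes called, which were 12.0% higher and 12.7% lower in HG against LG, 21.7% and 19.9% in LGV against LG, 25.8% and 20.2% in HGV against HG, and 21.2% and 19.5% in HGV against LGV. Among regulators of the coat, 2 were higher and 5 lower of 16 in HG against LG. MIA3 (TANGO1), which loads large cargo such as collagen, was lower by -1.14 (SE 0.15, edgeR FDR 2.86e-05), CTAGE5, its partner, by -0.87, and SCAP, the escort of SREBP, by -0.44, while SEC31B was higher by 0.55 and KLHL12, a ubiquitin ligase adaptor for SEC31, by 0.53. In HGV against LGV 3 regulators were higher and 6 lower of 16. MIA3 and CTAGE5 were again lower (-1.04 and -0.95), KLHL12 was again higher (0.84), and TECPR2 was higher (0.79). CTAGE5 was also lower with VPA at both glucose levels (-0.75 in low and -0.81 in high glucose). PREB, the exchange factor of SAR1, had 181 ± 51.1 CPM in LG, 186 ± 21.8 in HG, 146 ± 25.6 in LGV and 299 ± 29.2 in HGV. It was higher in HGV than in HG (0.68, SE 0.12, FDR 0.000449) and than in LGV (1.02, SE 0.14, FDR 2.94e-05). PEF1, the calcium-sensing partner of KLHL12, was lower with VPA at both glucose levels (-1.20 and -0.97). The count of higher regulators in HG against LG was at the share of all genes, and with library size alone 2 were higher and 2 lower.

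Cargo receptors and p24 proteins, which concentrate cargo in COPII vesicles, had 1 higher and 9 lower of 27 tested in HG against LG (1 and 8 with library size alone). MCFD2, which carries clotting factors with LMAN1, was lower by -1.11 (SE 0.14, edgeR FDR 2.41e-05), TMED2 by -0.99 and TMED7 by -0.89, and ERGIC1 was higher by 0.34. In HGV against LGV, 2 were higher and 8 lower of 28, again with MCFD2 (-0.99), TMED7 (-0.94) and TMED2 (-0.91) at the lower end. The list's median was -0.242 in the first and -0.257 in the second comparison. VPA gave both directions, with 5 higher and 8 lower of 28 in LGV against LG and 4 and 4 in HGV against HG, where library size alone gave 7 and 1. Except for the lower genes in low glucose, these counts were near or below the shares of all genes. TMED1 was lower in both (-1.61 and -1.34), and CNIH2 was higher in both, from 5 to 15 reads per LG library to 70 to 76 in LGV, and from 7 to 11 in HG to 93 to 112 in HGV.

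The COPI coat, which returns proteins from the Golgi to the ER, had 0 higher and 5 lower of 16 in HG against LG, all by less than SEC24A, with COPE and COPB2 at -0.52 and ARCN1 at -0.49. It had 1 higher and 1 lower of 17 in HGV against LGV (3 and 0 with library size alone). With VPA in low glucose 3 were higher and 7 lower of 17, with ARFGAP2 at -1.05, and in high glucose 5 were higher and 3 lower, near the shares of all genes (7 and 2 with library size alone). Tethers and SNAREs, which dock and fuse the vesicles, had 2 higher and 5 lower of 37 in HG against LG, no more than about the shares of all genes (2 and 1 with library size alone). TRAPPC6A was higher there by 1.16 and TRAPPC10 lower by -0.50. The list had 1 higher and 10 lower in LGV against LG (6 and 5 with library size alone), 6 and 4 in HGV against HG, and 6 and 2 in HGV against LGV. USE1, a SNARE of the ER, was lower with VPA at both glucose levels (-1.14 and -1.03).

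SEC13 also serves in the nuclear pore and in GATOR2, and of 12 partners there 2 were higher and 0 lower in HG against LG. These counts were near the shares of all genes. The higher partners were NUP37 (0.67, SE 0.16, edgeR FDR 0.0057) and NUP107 (0.46, SE 0.16, FDR 0.0405). In LGV against LG 1 partner was lower (WDR59, -0.39), in HGV against HG 1 (SEH1L, -0.34), and in HGV against LGV 2 were higher and 1 lower. The count in HGV against HG depended on the settings, with 4 lower with DESeq2 size factors or the Wald test of DESeq2, and 1 higher and 0 lower with library size alone. Of the CREB3 family, ATF6 and XBP1, transcription factors of the secretory pathway, 2 were higher and 2 lower of 7 in HG against LG. The lower genes were ATF6 at -0.85 (SE 0.13, FDR 0.000162) and CREB3L2 at -0.61. The higher genes were CREB3L4 at 0.56 (FDR 0.0446) and CREB3L3 at 0.49 (FDR 0.0413). With the 1 CPM filter or at an FDR of 0.01, 0 were higher and 2 lower, and with library size alone 3 and 2. With VPA, 5 were higher and 2 lower of 8 in low glucose and 4 and 2 in high glucose. XBP1 (-0.78 and -0.88) and CREB3L4 (-1.0 and -1.06) were lower in both, and CREB3 was higher in both (0.53 and 0.87). CREB3L1 went from 2 to 4 reads per LG library to 59 to 92 in LGV, and from 0 to 1 in HG to 24 to 55 in HGV. In HGV against LGV 1 was higher and 2 lower, with ATF6 at -1.05. The interaction called 0 of the 118 listed genes by the quasi-likelihood test, 2 by edgeR's likelihood ratio test and 2 by the Wald test of DESeq2. An unadjusted quasi-likelihood p under 0.05 was found for 18 of the 118, and for 1852 of the 16389 genes in all.

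**Figure D4:**
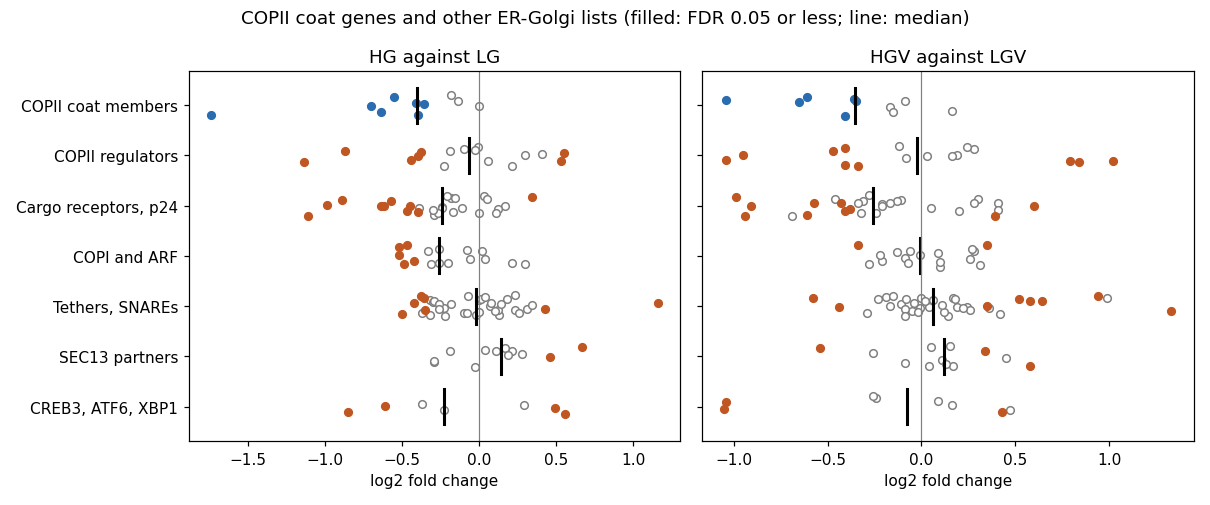
Log2 fold change (x axis) of each tested gene of the COPII coat and of the 6 other lists (rows), for HG against LG (left) and HGV against LGV (right). Filled points have an edgeR FDR of 0.05 or less, black lines are medians, and vertical scatter only separates the points. The coat's medians lie at -0.407 and -0.356, and the cargo receptors' at -0.242 and -0.257.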

How the data were processed

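Reads of 50 nt were trimmed by the authors, mapped to GRCh37 (STAR) and assigned to genes (featureCounts). They deposited raw counts for 16389 genes, without normalization, and had left out genes averaging under 10 reads per sample, which was checked on the values. Samples were grouped by their titles. The labels name no batch.

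Counts were tested with edgeR 4.0.16 (R 4.3.3): TMM factors, quasi-likelihood F test, a minimum mean count of 10 over the libraries compared, Benjamini-Hochberg FDR of 0.05 or less over all genes. Each pairwise comparison used its 6 libraries and the interaction used 12. Intervals are 95%. The scripts were tested on simulated data. Positions came from GENCODE on GRCh37, which placed 97.47% of the genes, and promoters from RefSeq.

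The members and lists were chosen with earlier results of these data known. Named were all members, the reference genes TXNIP and HSPA5, the closest profiles, and from each list genes among the 3 largest called changes in a direction; not all of them are printed.

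Alternatives were DESeq2 size factors, upper quartile or library size scaling, the likelihood ratio test, DESeq2 1.42.0 (Wald), 1 CPM in 3 libraries or no filter, a replicate block, one fit of 12 libraries, an FDR of 0.01, shares without length, and leaving out each library. MANE Select lengths were added after seeing the data. Python 3.11.15 and matplotlib 3.10.9 were used for shares and plots. The p of the share tests counts arrangements of labels within strata.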

Additional observations from a re-analysis of the deposited data

How the results depend on the processing

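The number of COPII members called in HG against LG was 7 as reported, 5 without a filter or with the replicate block, and 4 with upper quartile factors, with library size or at an FDR of 0.01. In LGV against LG it was 3 as reported, 4 with upper quartile factors, the 1 CPM filter or one fit of 12 libraries, 5 with library size and 1 at an FDR of 0.01. In HGV against LGV it was 6 as reported, 5 in one fit, 4 with upper quartile factors or library size, and 3 at an FDR of 0.01. In HGV against HG it was 5 as reported, 6 with upper quartile factors and 4 at an FDR of 0.01. For the interaction it was 0 as reported, and 1 with the likelihood ratio test and with the Wald test of DESeq2. Leaving out one library gave 3 to 7 members in HG against LG, 1 to 4 in LGV against LG, 4 to 6 in HGV against HG, 3 to 6 in HGV against LGV and 0 to 1 for the interaction. Calls over all genes moved as well. In HG against LG they were 1854 higher and 1959 lower as reported, and 824 and 1028 at an FDR of 0.01. They were 961 and 972 without LG replicate 1, 1121 and 955 without HG replicate 3, and 2719 and 2619 without LG replicate 3. SEC24D in HG against LG was called under every alternative, from -1.86 to -1.62 with a library left out.

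Changes of sign were found only in log2 fold changes and shares that were not called. They were SAR1A in HG against LG (-0.00251 with the 1 CPM filter, and -0.039 to 0.051 with a library left out), SEC24B in LGV against LG (-0.00226 without a filter, -0.00323 with the replicate block, -0.00514 in one fit, and -0.083 to 0.15), SEC24C in LGV against LG (0.0331 with library size, and -0.27 to 0.011), SEC23B in HGV against LGV (0.00432 with upper quartile factors), SEC13 in HGV against HG (-0.010 to 0.078) and the interactions of SEC31A (-0.00675 with library size, and -0.11 to 0.16), SEC24A (-0.030 to 0.16) and SAR1B (-0.040 to 0.11).

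Of the shares, the glucose differences ran from 4.87 to 7.02 points for SEC24C, -6.11 to -5.41 for SEC24D and 2.79 to 4.03 for SAR1A with a library left out, with adjusted p up to 0.08, 0.06 and 0.08. The adjusted p of SEC24C and SEC24D rose above 0.05 only without one of the LGV libraries, where the raw p of SEC24D was still 0.005, and that of SAR1A did so also without HG replicate 2 or 3. The SEC24A share with VPA was 2.28 without length, 1.73 with MANE Select lengths and 1.53 to 2.39 with a library left out (adjusted p up to 0.12). Shares that passed no test and changed sign were SEC23A with glucose (-1.78 to 0.754) and, with VPA, SEC24D (-0.241 to 0.459) and SAR1A (-0.173 to 1.06).

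Same-numbered libraries did not all deviate together (mean correlation across genes -0.178 in HG against LG, and 0.0848, 0.129 and 0.13 in the other pairwise comparisons), so the numbers were not taken as pairs. With the replicate block, 5 members were called in HG against LG, where SEC24B and SEC23B lost their calls, 3 in LGV against LG, 5 in HGV against HG, 6 in HGV against LGV and 0 for the interaction, and 4 of the 12 SEC13 partners were lower in HGV against HG in place of 1. The cause of these changes was not tested. Smaller changes than these in the members could not be told from the spread between 3 libraries.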
